A study of Mus musculus with 12 samples.

Results

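The genes described are HMGA2, HMGA1, IGF2BP1, IGF2BP2 and IGF2BP3, a set of oncofetal genes that includes well-known let-7 targets, and they were 5 of the 11481 genes listed in at least 1 of 2 deposited expression tables. The members were taken by name, and each was listed in both tables. Hmga2 was chosen by its higher CPM (reads of a gene scaled to the total reads of its library) in knockout than in wild-type cells after doxorubicin. Which values, if any, put the other 4 genes in the set is not recorded, so they were treated in the same way. Knockout against wild type after doxorubicin is therefore given for the members as a description, with no test.

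RNA was sequenced from primary mouse embryonic fibroblasts of a hybrid 129/B6 background, either lincRNA-p21+/+ (WT) or lincRNA-p21-/- (KO). LincRNA-p21 is a long noncoding RNA gene induced by p53, and the question was what its loss does to expression with and without DNA damage. Cells of each genotype received a mock treatment or 0.5 mM doxorubicin, an anthracycline that damages DNA, for 24 hours. The dose is as the labels state it, and its unit is in doubt because micromolar doses are more usual. This gave 4 groups, each genotype with either treatment, of 3 replicates each. The labels do not say what a replicate number stands for or whether replicates came from separate embryos, so p-values measure the spread between these samples, which may be partly technical.

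HMGA proteins are small chromatin proteins whose AT-hooks bind the minor groove of AT-rich DNA and bend it. IGF2BP proteins bind RNA in the cytoplasm and affect the stability, transport and translation of messages such as Igf2, Myc and Actb. Both families are high in the embryo, mostly low in adult tissues and often high again in tumours. The let-7 microRNAs, which accumulate as cells differentiate, pair through their seed with sites in the 3′ UTR of target messages and lower their stability and translation, and Hmga2 is among the best studied of those targets.

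The microRNA and its sites are shown because the members are grouped by them. RefSeq (GRCm38.p6) gave mature sequences for 11 family names, and 10 of these shared the seed GAGGUAG at bases 2 to 8. The exception, let-7j, ends its seed with U. The seed is in capitals in the following examples, from the 5′ end, and the first 2 lie at chr13:48538239-48538260 on the minus strand and chr15:85707325-85707346 on the plus strand.
mmu-let-7a-5p: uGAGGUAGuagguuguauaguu
mmu-let-7b-5p: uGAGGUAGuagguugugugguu
mmu-let-7g-5p: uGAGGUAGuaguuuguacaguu
mmu-miR-98-5p: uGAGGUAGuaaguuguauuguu
mmu-let-7j: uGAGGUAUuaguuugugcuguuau

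Matches were searched on the message strand in the longest annotated 3′ UTR of each gene (GENCODE M21, GRCm38). CTACCTC pairs with bases 2 to 8 and TACCTCA with bases 2 to 7 followed by A. CTACCTCA, which contains both, was counted once as an 8-letter site. Hmga2, on chromosome 10, held 7 sites in 3014 bases, of which 1 had 8 letters. Of 2246 genes with a 3′ UTR within 20% of that length, Hmga2 included, 3 (0.134%) held as many or more. Its sites follow in order from the stop codon, each in 22 bases with the match in capitals.
Hmga2 site 1: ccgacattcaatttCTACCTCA
Hmga2 site 2: accgcagtaccactTACCTCAg
Hmga2 site 3: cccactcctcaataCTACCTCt
Hmga2 site 4: agtctccaagtttgTACCTCAa
Hmga2 site 5: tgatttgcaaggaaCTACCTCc
Hmga2 site 6: atcaaaacacactaCTACCTCt
Hmga2 site 7: cttaagtcccagtaTACCTCAt

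The other members held fewer. Igf2bp1, on chromosome 11, had 5 sites in 6337 bases, 3 of them with 8 letters. As many or more were held by 0.887% of 3′ UTRs of like length, its own included. Igf2bp2, on chromosome 16, had 2 sites in 1784 bases, which 2.69% of like length matched or exceeded. Igf2bp3, on chromosome 6, had 1 site in 2119 bases, and 23% of like length had 1 or more. Hmga1, on chromosome 17, had 1 site in 1183 bases, a count reached by 12.9% of like length. Over 20999 genes with a 3′ UTR, 14.9% held a 7-letter site and 3.06% an 8-letter site. A match is a description of the sequence, and let-7 itself was not measured in these libraries. The first 8-letter site of each Igf2bp gene and the site of Hmga1 are printed for comparison with those of Hmga2.
Igf2bp1 site 1: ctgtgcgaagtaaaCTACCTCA
Igf2bp2 site 1: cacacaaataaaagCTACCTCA
Igf2bp3 site 1: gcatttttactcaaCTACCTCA
Hmga1 site 1: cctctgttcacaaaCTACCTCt

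**Figure D1:**
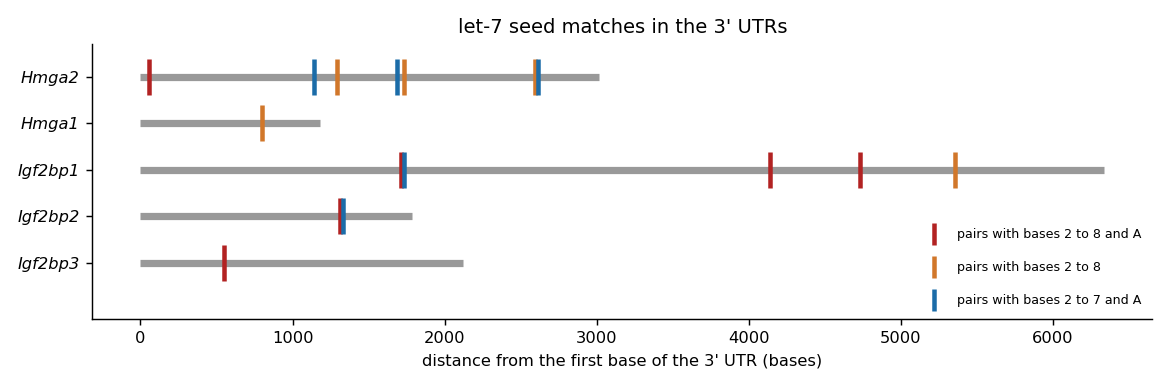
Positions of let-7 seed matches along the longest annotated 3′ UTR of each gene, in bases from the first base after the stop codon; grey bars are the 3′ UTRs and coloured ticks the 3 kinds of match. The 7 ticks of Hmga2 are spread over 3014 bases, and the 5 of Igf2bp1 start at base 1715 of its 6337 bases.

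Library totals ran from 14327048 to 20511907 reads. Marker genes were looked at beside the labelled identity. Of 12 fibroblast markers 11 were listed, Lum being the exception. Their summed level was 48700 to 69400 CPM in mock and 30300 to 42000 CPM in doxorubicin libraries. Of the 6 pluripotent cell markers 0 were listed, of 6 epithelial markers 1, of 5 endothelial 2, of 5 blood cell 1, of 6 skeletal muscle 2 and of 5 neural 2. Of these other types, the neural markers summed to at most 595 CPM and the skeletal muscle markers to at most 434 CPM in a library. Genes were listed where the WT libraries of the table exceeded 2 CPM, with no such floor in KO, where 164 genes in mock and 313 after doxorubicin reached 2 CPM or less in some library. The members were far above that floor in all 12 libraries, the lowest value of any being 43.5 CPM. LincRNA-p21 was not analysed here, which leaves the genotype labels without a check on the deleted gene.

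Hmga2 was the highest of the members in CPM in each of the 12 libraries. In mock-treated cells its level in replicates 1 to 3 was 357.9, 579.6 and 554.3 CPM for WT and 555.2, 816.2 and 499.5 CPM for KO. These groups overlapped, since the third KO library lay below 2 of the WT libraries. After doxorubicin the level was 422.8, 380.6 and 340.8 CPM for WT and 796.7, 825.6 and 671.8 CPM for KO. Here the lowest KO library stood well above the highest WT library. That separation is the pattern for which the gene was chosen, and it held in either direction for 16.3% of the 11125 genes of the doxorubicin table, from which nothing is read about Hmga2.

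The mean of Hmga2 without doxorubicin was 497 ± 121 CPM for WT and 624 ± 169 CPM for KO, and with it 381 ± 41.0 CPM for WT and 765 ± 81.7 CPM for KO (SD, n = 3 each). The order was thus WT doxorubicin, WT mock, KO mock, KO doxorubicin, and each neighbouring pair in that order overlapped in range. The ratio of KO to WT means was 2.005 after doxorubicin and 1.254 in mock. In same-numbered libraries after doxorubicin, the difference on the log2(CPM + 1) scale was 0.91, 1.12 and 0.98, a mean of 1.00 (SE 0.07 with the replicate number as a block and 0.14 without). In mock the same 3 differences were 0.63, 0.49 and -0.15, so the third pair went the other way.

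The response of Hmga2 to doxorubicin had opposite signs in the group means of the genotypes. In WT the log2 difference between doxorubicin and mock was -0.36 (SE 0.18 with the block and 0.21 without), from 0.24, -0.61 and -0.70 in the 3 same-numbered pairs. In KO it was 0.32, with the same SE, from 0.52, 0.02 and 0.43. In WT 1 pair was higher and 2 were lower after doxorubicin, and in KO the second pair stayed near 0 while the other 2 were higher. The difference between these responses was 0.68 (SE 0.25 with the block and 0.30 without); it contains the comparison that chose the gene and was given no test.

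Hmga1, the other HMGA gene, varied more between replicates than between genotypes. Its level was 49.2, 96.1 and 65.7 CPM for WT and 86.7, 164.1 and 43.5 CPM for KO under mock treatment. After doxorubicin it was 96.6, 153.8 and 107.8 CPM for WT and 124.1, 204.7 and 106.8 CPM for KO. Replicate 2 was the highest in each of the 4 groups, and the highest of the 12 values was 4.7 times the lowest. The group means were 70.3 ± 23.8, 98.1 ± 61.1, 119 ± 30.3 and 145 ± 52.3 CPM for WT and KO in mock and then WT and KO after doxorubicin (SD, n = 3 each), and neighbours in that order did not differ beyond their spread. KO minus WT after doxorubicin was 0.36, 0.41 and -0.01 on the log2 scale in the 3 pairs, which overlapped in level.

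Of 3 cycling genes looked at beside Hmga1 after its values were seen, 2 were also highest in replicate 2 of each group. Ccna2, the cyclin of S and G2 phase, was for example at 78.0 CPM in replicate 2 of WT doxorubicin against 10.8 and 18.4 CPM in replicates 1 and 3. Rrm2, a ribonucleotide reductase subunit, was at 262.3 CPM in that library against 65.7 and 90.3 CPM. E2f1, a transcription factor of S phase entry, was at 43.7, 48.3 and 48.2 CPM in WT doxorubicin, and replicate 2 was its middle library in the other groups. The part of this replicate in the levels of Hmga1 was not tested. The value of Hmga1 is also uncertain because a related copy, Hmga1b, shared 89% of its 50-base windows with Hmga1 transcripts, and the copy had no row of its own under that name here.

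Igf2bp1, whose message carries 3 of the 8-letter sites, was the flattest of the members. Under mock treatment WT libraries gave 49.6, 59.5 and 57.7 CPM and KO libraries 46.8, 61.0 and 55.4 CPM. After doxorubicin WT libraries gave 60.9, 60.0 and 50.7 CPM and KO libraries 51.6, 63.1 and 46.3 CPM. The ranges of the 4 groups overlapped throughout, and the highest library was 1.36 times the lowest. Group means lay between 53.7 ± 8.59 CPM in KO doxorubicin and 57.2 ± 5.69 CPM in WT doxorubicin (SD, n = 3 each), so no order among them exceeded the spread.

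Igf2bp2, the member of its family most often retained in adult tissues, was lower after doxorubicin in both genotypes. Mock libraries gave 146.6, 150.3 and 169.7 CPM for WT and 174.2, 167.3 and 172.7 CPM for KO. Doxorubicin libraries gave 121.5, 93.4 and 91.0 CPM for WT and 140.8, 115.4 and 121.5 CPM for KO. In each genotype the 3 doxorubicin libraries lay below the 3 mock libraries, and KO and WT overlapped within each treatment. KO minus WT after doxorubicin was 0.21, 0.30 and 0.41 on the log2 scale in same-numbered pairs, a mean of 0.31 (SE 0.07 with the block and 0.15 without).

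Igf2bp3, an RNA-binding protein found in embryos and many carcinomas, was lower after doxorubicin as well. Mock libraries held 74.1, 72.8 and 86.0 CPM for WT and 78.6, 82.8 and 91.5 CPM for KO. Doxorubicin libraries held 53.4, 63.9 and 51.3 CPM for WT and 60.1, 52.7 and 50.2 CPM for KO. The doxorubicin libraries were again below the mock libraries of their genotype. A drop with no overlap of this kind was found for 25.3% of the 10292 genes listed in both tables in WT and for 21.5% in KO. The ranges of the genotypes overlapped in each treatment, and KO minus WT after doxorubicin was -0.05 on the log2 scale (SE 0.14).

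**Figure D2:**
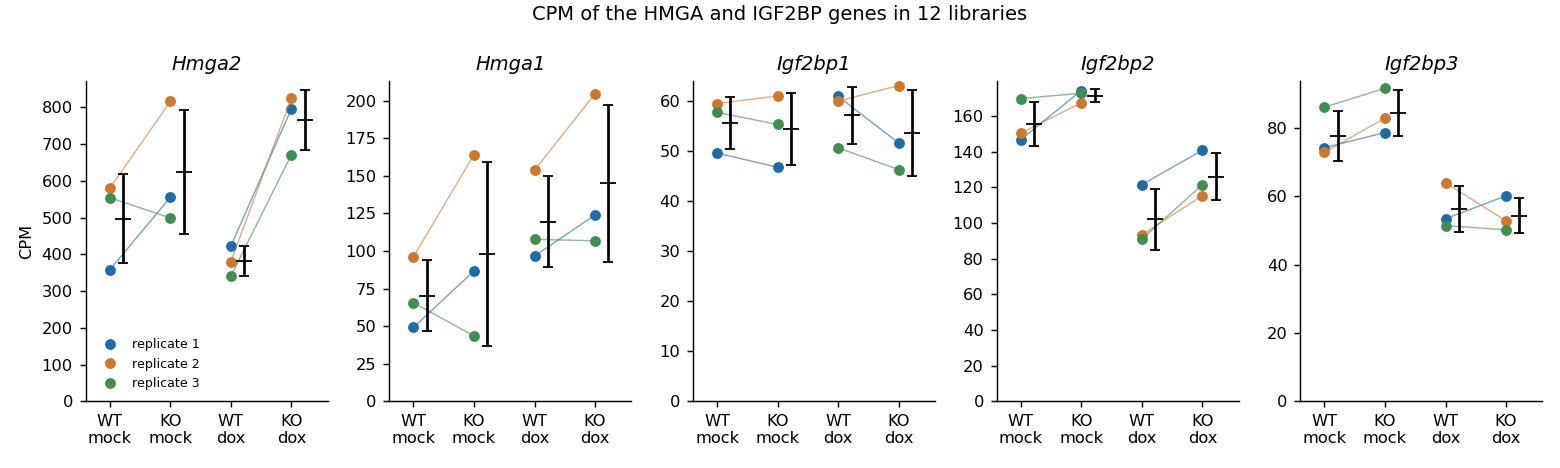
CPM of each gene (vertical axes, from 0, each with its own scale) in the 12 libraries by group; points are libraries coloured by replicate number, lines join WT and KO of the same number, and black bars are the mean ± SD of 3 replicates. Hmga2 in KO doxorubicin cells lies at 671.8 to 825.6 CPM, above the 340.8 to 422.8 CPM of WT doxorubicin cells, while Igf2bp2 and Igf2bp3 are lower after doxorubicin in both genotypes.

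In untreated cells the loss of lincRNA-p21 was tested on libraries that had no part in choosing Hmga2. Same-numbered mock and doxorubicin libraries deviated together, so the test may not be fully independent of that choice. For the other members the choice is not recorded. None of the 5 members was called in limma, which tested each of 10648 genes on log2(CPM + 1); a call is an adjusted p under 0.05 by the Benjamini-Hochberg method over the table. Over all genes 0 passed, a share of 0%, although 440 had an unadjusted p under 0.05. KO minus WT was 0.33 (SE 0.25) for Hmga2, with an adjusted p of 0.978 in limma, and 0.33 (SE 0.48) for Hmga1, with 0.987. It was -0.04 (SE 0.13) for Igf2bp1, 0.14 (SE 0.08) for Igf2bp2 and 0.12 (SE 0.10) for Igf2bp3. The WT and KO libraries of each member overlapped in mock, while 9.98% of genes had groups that did not.

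WT and KO libraries with the same replicate number deviated together, so the fit was repeated with the number as a block. The share of genes called in mock was then 0.92%, with 0.563% higher and 0.357% lower in KO, and again 0 of the 5 members were called. Their adjusted p in limma ran from 0.224 for Igf2bp2 and 0.265 for Hmga2 to 0.719 for Igf2bp1. Replicate 3 had weight here: with that number left out, the blocked fit called Hmga2 at 0.56 (limma adjusted p = 0.000788), Hmga1 at 0.79 (0.000296) and Igf2bp2 at 0.20 (0.0275), each higher in KO. That fit rests on 2 pairs and called 22.9% of all genes, 15.5% higher and 7.42% lower. Without the block the value of Hmga2 in mock ran from 0.10 without WT replicate 1 and 0.11 without KO replicate 2 to 0.47 without KO replicate 3, and it was not called in any of the 6 fits that left out 1 library.

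Doxorubicin against mock, averaged over both genotypes, lowered Igf2bp2 and Igf2bp3. Which values, if any, put the members other than Hmga2 in the set is not recorded. This comparison may have had a part in choosing them, and their p-values carry that limit. Igf2bp2 fell by 0.53 on the log2 scale (SE 0.09, limma adjusted p = 0.000345) and Igf2bp3 fell by 0.54 (SE 0.08, limma adjusted p = 0.000247), and each was lower in 6 of 6 same-numbered pairs. Doxorubicin changed a large part of the transcriptome: 58.1% of the 10292 genes were called, 31.2% higher and 26.8% lower, and 2 of 5 members lower stands beside that last share, which with 5 genes is no result about the set. The split of higher to lower calls was 3216 to 2761 on CPM as deposited, 2656 to 3486 with each library centred on its median and 2828 to 3257 after quantile normalization, and both Igf2bp genes stayed lower and called under each of these scalings. In bulk RNA, fewer cells of a type and less RNA per cell cannot be told apart.

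Hmga1 was higher after doxorubicin by 0.74 on the log2 scale in 6 of 6 pairs. This missed the threshold without the block (SE 0.30, limma adjusted p = 0.0532) and passed it with the block (SE 0.17, limma adjusted p = 0.00231), where 70.8% of genes passed. Leaving out 1 library without the block gave adjusted p from 0.00764 to 0.121. Hmga2 averaged -0.02 (SE 0.15, limma adjusted p = 0.930), the mean of a lower value in WT and a higher value in KO, and Igf2bp1 averaged 0.0087 (SE 0.10, limma adjusted p = 0.949). The sign of both averages turned under several alternatives.

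Other markers moved with the doxorubicin comparison and stand beside these results. Of the 11 measured fibroblast markers 6 were lower and 0 higher, beside 26.8% lower and 31.2% higher over all genes. With the block 8 were lower and 0 higher, where 70.8% of all genes were called. Pdgfrb, a growth factor receptor, was at 112 ± 33.5 CPM after doxorubicin and 573 ± 89.1 CPM in mock (SD, n = 6 each). The 2 measured endothelial markers, Kdr and Eng, summed to 18.7 to 48.4 CPM in mock and 54 to 94.9 CPM in doxorubicin libraries, with no overlap, while Pecam1, Cdh5 and Tek were not listed. Cd68, the single measured blood cell marker, was at 2.42 to 58.3 CPM in mock and 45.4 to 126 CPM in doxorubicin libraries, while Ptprc, Lyz2, Csf1r and Itgam were not listed. The summed epithelial, skeletal muscle and neural markers overlapped between the treatments. The part of these genes in the fall of Igf2bp2 and Igf2bp3 was not tested.

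**Figure D3:**
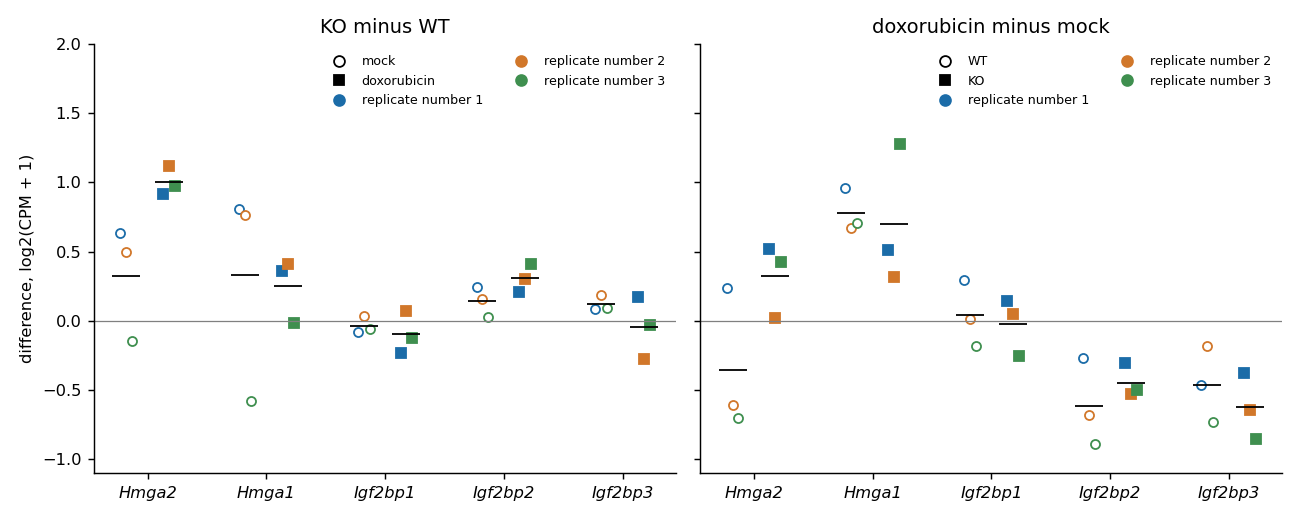
Differences on the log2(CPM + 1) scale (vertical axis) between libraries with the same replicate number, KO minus WT on the left and doxorubicin minus mock on the right, for each gene; points are pairs coloured by number and black dashes the mean of 3. Hmga2 lies between 0.91 and 1.12 in the doxorubicin pairs of KO minus WT, and Igf2bp2 and Igf2bp3 lie below 0 in every pair of doxorubicin minus mock.

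Per kilobase of the annotated coding transcript with the longest 3′ UTR, Hmga2 was also the most abundant member. Its mean was 131 CPM per kb in WT mock, 164 in KO mock, 100 in WT doxorubicin and 201 in KO doxorubicin. Hmga1 followed with means of 41.8 to 86.4 CPM per kb, then Igf2bp2 with 26.1 to 44.0, Igf2bp3 with 12.5 to 19.4 and Igf2bp1 with 6.41 to 6.83. The range of Hmga1 overlapped that of Igf2bp2 in both mock groups and that of Hmga2 in WT doxorubicin; within a group no other neighbours in this order overlapped. Among the genes of its table, unscaled for length, Hmga2 ranked between the 96.0 and 98.9 percentile in each library.

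The genes whose profile over the 12 libraries was nearest to that of Hmga2 were Foxc2, Gramd4, Tiam2, Sh3rf1 and Slc35a3. Likeness was the root mean square difference of log2(CPM + 1) after each gene was centred on its own mean, over 10291 genes, and its median was 0.517. Foxc2, a forkhead transcription factor of mesenchyme, was at 0.176 and was at 27.2 CPM on average in WT mock, 34.8 in KO mock, 19.4 in WT doxorubicin and 41.7 in KO doxorubicin. Gramd4 was at 0.177 and Tiam2, an exchange factor for Rac, at 0.231. The other members were further off. Igf2bp2 came 2493rd at 0.43 and Igf2bp1 2866th at 0.441, both nearer than the median. Igf2bp3 came 5324th at 0.523 and Hmga1 6475th at 0.58, both beyond it.

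Other reported let-7 targets lay on both sides of 0 between the genotypes. Of 38 such genes, 30 were measured, and 25 of these held a 7-letter site and 13 an 8-letter site, while Plagl1 and Hras were among the 5 with 0 sites. In mock, 20 of 30 were above 0 in KO minus WT, with a median of 0.064 on the log2 scale beside 0.058 over all genes, and 0 were called without the block. With the block 1 was called: Plagl1, an imprinted zinc finger gene, rose from 43.7 ± 6.33 CPM in WT to 90.1 ± 5.48 CPM in KO (SD, n = 3 each; log2 difference 1.03, SE 0.06, limma adjusted p = 0.0223). The count of called targets in mock was 9 when replicate number 3 was left out of the blocked fit, in which 22.9% of all genes were called.

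After doxorubicin, 18 of the 30 targets were above 0 in KO minus WT, with a median of 0.109 beside 0.033 over all genes. Without the block 0 targets and 0% of all 11125 genes were called, although 1246 genes had an unadjusted p under 0.05. With the block 5 targets were higher and 5 lower, beside 25.3% of all genes called, 11.8% higher and 13.6% lower. The higher ones were Ccnd1, Plagl1, Igf1r, Thbs1 and Map4k3, and the lower ones included Rrm2, Il6, Tgfbr1 and Hras.

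Ccnd1, which encodes cyclin D1 of the G1 phase, was at 382 ± 84.1 CPM for WT and 752 ± 39.5 CPM for KO after doxorubicin (SD, n = 3 each; log2 difference 1.00, SE 0.10 with the block, limma adjusted p = 0.00440). Igf1r, the receptor for insulin-like growth factors, was at 95.9 ± 11.9 CPM for WT and 144 ± 13.5 CPM for KO (limma adjusted p = 0.00734 with the block). Rrm2 was at 139 ± 107 CPM for WT and 69.4 ± 33.0 CPM for KO, the wide WT value being that of replicate 2 (limma adjusted p = 0.00988 with the block). Among these reported targets, calls in both directions were made only with the block, and the part of let-7 in them was not tested.

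**Figure D4:**
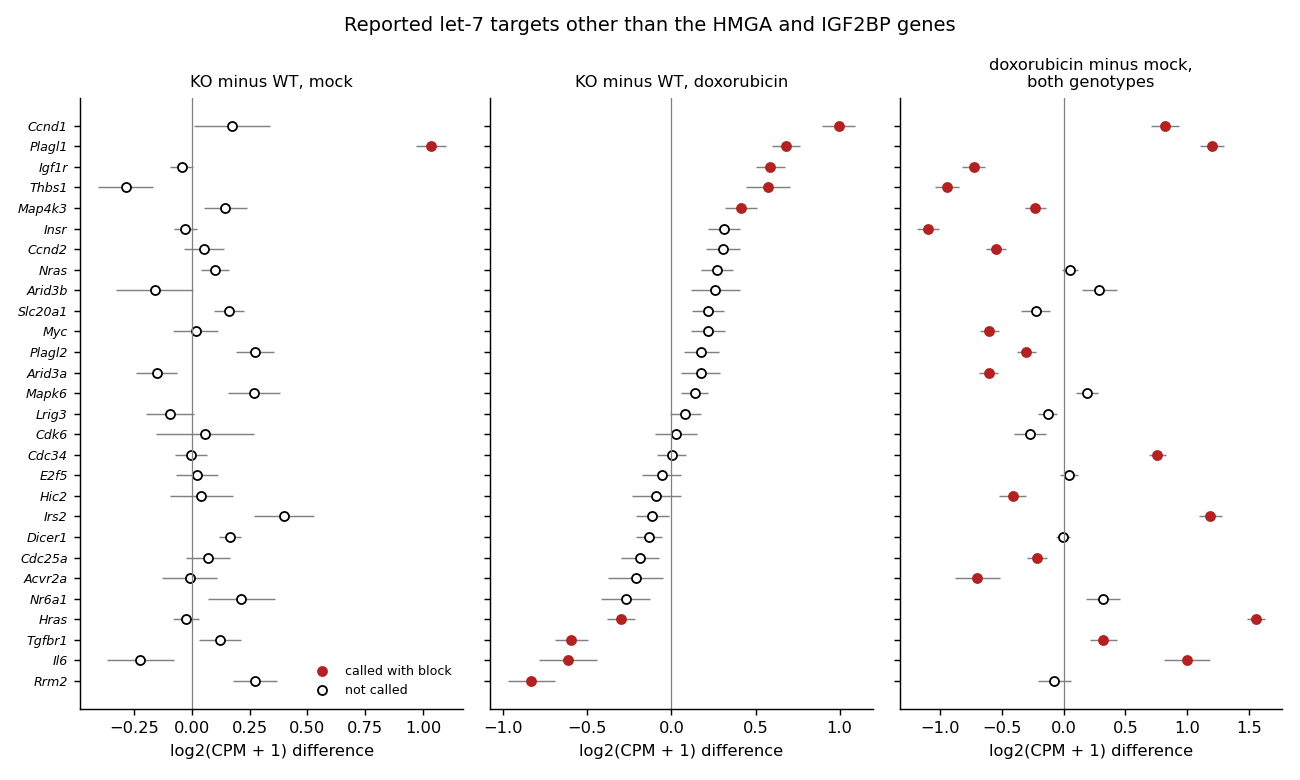
Log2(CPM + 1) differences of reported let-7 targets (horizontal axes, each with its own scale) in 3 comparisons; points are genes in the order of the middle panel, bars the standard error of the fit with the replicate block, and red points passed that fit. In KO minus WT after doxorubicin red points lie on both sides of 0, from Rrm2 at -0.83 to Ccnd1 at 1.00.

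Doxorubicin against mock changed 17 of the 30 targets over both genotypes, 7 higher and 10 lower, a share near the 58.1% of all genes. Hras, a small GTPase of growth factor signalling, was among the higher, at 72.1 ± 5.46 CPM in mock and 216 ± 34.2 CPM after doxorubicin (SD, n = 6 each; log2 difference 1.55, SE 0.09, limma adjusted p = 6.82e-07). Insr, the insulin receptor, was among the lower, at 60.8 ± 4.22 CPM in mock and 28.4 ± 6.31 CPM after doxorubicin (log2 difference -1.09, SE 0.12, limma adjusted p = 2.23e-05). Lin28a, Lin28b, which encode inhibitors of let-7 processing, and Trim71, Mycn, Fign, Fignl2, Prtg and Igdcc3 were not analysed here.

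Of the genes of let-7 processing and the microRNA machinery 17 were measured, and the counts called were near the shares over all genes. In mock, 16 of the 17 lay above 0 in KO minus WT and 1 below. Their median was 0.119 on the log2 scale, beside 0.058 over all genes, of which 7094 of 10648 were above 0. In KO minus WT 0 were called in mock with or without the block, and after doxorubicin the block gave 3 higher and 1 lower in KO, beside 11.8% higher and 13.6% lower over all genes. Those were Drosha, which cuts primary transcripts in the nucleus, Ago1 and Khsrp, at 0.28, 0.42 and 0.25 on the log2 scale, and Tut4, a terminal uridylyltransferase, at -0.28. Over both genotypes doxorubicin gave 5 higher and 5 lower without the block, beside 31.2% higher and 26.8% lower over all genes. Drosha fell by 0.53, its partner Dgcr8 fell by 0.58 and Ago1 fell by 0.90, whereas Tut4 rose by 0.72 and Tut7 by 0.61 (limma adjusted p from 4.01e-05 for Ago1 to 0.000299 for Dgcr8).

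The insulin-like growth factor axis, from which the IGF2BP family takes its name, had 13 of 13 genes measured. In mock 0 were called with or without the block. After doxorubicin the block gave 3 higher in KO (Igf1r, Irs1 and Igfbp4) and 2 lower (Igfbp6 and Igfbp7), beside 25.3% of all genes called, and none was called without it. Over both genotypes Irs1, Irs2 and Igfbp3 rose with doxorubicin and Igf1r, Insr and Igfbp5 fell, beside the 58.1% of all genes called. Igfbp5, a secreted binding protein, showed the widest change of these, from 825 ± 283 CPM in mock to 122 ± 79.3 CPM (SD, n = 6 each; log2 difference -2.85, SE 0.28, limma adjusted p = 1.19e-05).

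Transcripts reported as bound by IGF2BP proteins were measured for 8 of 12 genes in mock and 9 after doxorubicin. With the block, H19 was higher in KO in mock, and 3 transcripts, H19 and Actb among them, were higher after doxorubicin, with 0 lower. Over all genes that fit called 0.92% in mock and 25.3% after doxorubicin, the latter 11.8% higher and 13.6% lower. Without the block none of these transcripts was called. H19, an imprinted noncoding RNA, spread widely, at 484 ± 434 CPM for WT and 1159 ± 1019 CPM for KO in mock (SD, n = 3 each; log2 difference 1.26, SE 0.80 without and 0.07 with the block). Over both genotypes 3 of 8 transcripts were lower after doxorubicin and 1 was higher, beside 26.8% lower and 31.2% higher over all genes. H19, Myc and Actb were lower, and Abcb1b, a drug efflux pump, was higher, from 18.8 ± 8.11 to 63.1 ± 12.6 CPM (SD, n = 6 each; limma adjusted p = 3.01e-05).

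Genes reported as regulated by HMGA proteins were measured for 9 of 9 entries, and 0 were called in mock with or without the block. After doxorubicin the block called 4 higher in KO and 2 lower, beside 11.8% higher and 13.6% lower over all genes, and none was called without it. Snai1, a transcription factor that represses epithelial genes, was at 16.4 ± 1.65 CPM for WT and 28.4 ± 3.80 CPM for KO (SD, n = 3 each; log2 difference 0.75, SE 0.11 with the block, limma adjusted p = 0.00713). Twist1, Cdkn2a and Cdkn2b were the other higher genes, at 0.63, 0.55 and 0.47 on the log2 scale. Ccna2 was lower, at 35.7 ± 36.8 CPM for WT and 12.8 ± 7.69 CPM for KO, as was E2f1. Fibroblast markers gave 3 lower and 0 higher in the same blocked fit (Thy1, Postn and S100a4), and their part in these differences was not tested.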

How the data were processed

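The authors deposited CPM per gene in 2 tables, one for each treatment and each with both genotypes (10648 and 11125 genes, 10292 in both). Per the submitters' processing notes, TopHat2 2.0.6, HTSeq, edgeR and the assembly NCBIM37 were used, with no account of which step each served. Each value was a multiple of 1 read over its library total within 0.001 of a read, so the tables share a scale, and the totals described depth. Per the labels' protocols the library kit was stranded. Whether counting used strand is not given in the sources used here, and annotated genes on the opposite strand overlap Hmga2 (1700006J14Rik and 9230105E05Rik), Hmga1 (Gm49774 and AI413582), Igf2bp1 (Gm29202) and Igf2bp3 (Malsu1 and Gm18010).

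Tests used limma (version 3.58.1, under R version 4.3.3), with a linear model per gene and moderated variances that follow the mean, fitted to log2(CPM + 1) over whole tables, with Benjamini-Hochberg adjustment at 0.05; fold changes on this scale understate those of low genes. The code was tested on simulated data. WT and KO were contrasted separately for each treatment, and doxorubicin with mock in 4 groups of 12 libraries. Count tests that had been intended were not run because the unit was CPM. Gene names, transcript lengths and 3′ UTRs came from GENCODE M21 (GRCm38), so no coordinates are given on the submitters' build.

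The labels give all groups the same replicate numbers. Deviations from the group means correlated across genes at 0.710 to 0.855 for same-numbered WT and KO libraries in mock and 0.669 to 0.800 after doxorubicin; over all 12 libraries same-numbered ones correlated at 0.342 to 0.856. Different numbers were negative, which is partly forced because the deviations of a group sum to 0. The numbers were therefore taken, from the data, to pair the samples, and blocked values are printed where they change a call of a member. For the gene lists they are printed mainly in KO against WT. Doxorubicin against mock is given for the lists without the block unless stated, and the block changed some of those calls. For the let-7 targets it gave 8 higher and 12 lower in place of 7 higher and 10 lower.

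The members and gene lists were chosen with earlier results of these data known. The named genes are the 5 members, up to 8 called genes with the largest difference in each list and comparison, and the 5 genes nearest to Hmga2. Hras in KO against WT was added after its value was seen. Some genes counted in the lists are not reported here by name. Alternatives were a pseudocount of 0.1 CPM, a mean of at least 5 CPM, quantile normalization, median centring, the replicate block and leaving out replicates.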

Additional observations from a re-analysis of the deposited data

How the results depend on the processing

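With 3 libraries a group and 2 to 3 pairs, small differences are not detectable, and alternatives with the block and another scaling were chosen after seeing the data. The intended edgeR and DESeq2 alternatives on reads were not run. Over both genotypes, Igf2bp2 (-0.65 to -0.45) and Igf2bp3 (-0.66 to -0.42) stayed lower after doxorubicin and called in each of 22 alternatives, and 2 to 3 members were called. Hmga1 passed in 9 of the 22, the replicate block among them. KO minus WT of Hmga2 after doxorubicin ran from 0.92 to 1.09. In mock, members called went from 0 to 3 with the replicate block without number 3, and were 0 in the other 15 alternatives. Let-7 targets called in mock went from 0 to 1 with the replicate block, alone or after either other scaling, and were 0 to 9 when the block left out 1 number. After doxorubicin they went from 0 to 10 with the block, 8 with quantile normalization added and 10 with median centring added, and were 5, 10 and 6 when the block left out numbers 1, 2 and 3. Signs turned where values were small, and the cause was not tested. In mock, Hmga2 was 0.10 to 0.47, Hmga1 -0.14 to 0.81 and Igf2bp1 -0.12 to 0.07 with 1 library left out; for Hmga1, KO mock replicate 2 alone turned it. Over both genotypes with 1 library left out, Hmga2 was -0.13 to 0.09 and Igf2bp1 -0.05 to 0.06; with the replicate block, Hmga2 was 0.12 without number 2 and 0.04 without number 3, and Igf2bp1 was -0.09 without number 1 and -0.0019 without number 2. Igf2bp1 was also -0.09 with quantile normalization or median centring, with or without the block. The block changed no call of a member other than Hmga1. The 5 genes nearest to Hmga2 shared 3 with those after quantile normalization.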
